A study of Rattus norvegicus with 63 samples.

Results

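miR-103 and miR-107 are a pair of microRNAs (miRNAs) whose mature strands are almost identical, and their levels were followed in the livers of rats given 15 compounds. The members were the 2 miRNAs that the arrays name rno-miR-103 and rno-miR-107, out of 350 miRNAs on the array and 162 that were detected on at least 1 array and tested. The pair was chosen with results of these arrays known, including that the members differ between treatments, so the fold changes of the members and the differences between them are given as a description, with no p-value. Where a member is said to be called, its value lay past the limma threshold, an adjusted p under 0.05. For the members this is a mark read beside the share of all miRNAs past the same threshold, and it is no evidence of a change, since the pair was chosen on these values. The lists of related miRNAs and of cell type markers were also chosen with earlier results of these data known. The limma adjusted p-values printed for them are therefore a description too.

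miRNAs are short RNAs that pair through their seed, the bases near their 5′ end, with messenger RNAs and lower their output. The members share a seed, and each is made from an intron of a gene for a pantothenate kinase, the enzyme of the first committed step of coenzyme A synthesis. In liver the pair is known for effects on insulin sensitivity and lipid metabolism, and Pank1, the host gene of miR-107, is known as a target of PPAR-alpha, the nuclear receptor that Wy-14643 activates.

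The sequences show how little separates the members. All 3 genes of the pair were matched by symbol in the RefSeq table of build GRCr8. The mature strands are printed with the seed, bases 2 to 8 counted from the 5′ end, and base 22 in capitals.
miR-103-3p: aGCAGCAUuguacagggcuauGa
miR-107-3p: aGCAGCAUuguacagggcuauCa
They are identical at 22 of 23 bases and differ by G22C, with miR-103 as the reference. Among 693 mature rat miRNA names in that table, 2 carry this seed, and these are the members.

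miR-103 has 2 genes and miR-107 has 1, so the arrays measure the sum of 2 sources for the former. Mir103a1 lies at chr10:20748474-20748559 on the + strand, inside Pank3 (chr10:20733191-20757017). Mir103a2 lies at chr3:138963227-138963312 on the + strand, inside Pank2 (chr3:138936448-138974196). Mir107 lies at chr1:241750418-241750504 on the - strand, inside Pank1 (chr1:241737371-241808126). Each hairpin is on the strand of its host gene. The hairpins are printed as precursors with the mature strand, bases 52 to 74 in each, in capitals, since the precursors differ more than the mature strands do.
Mir103a1: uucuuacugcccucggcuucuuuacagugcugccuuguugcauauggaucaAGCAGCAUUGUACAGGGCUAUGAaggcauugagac
Mir103a2: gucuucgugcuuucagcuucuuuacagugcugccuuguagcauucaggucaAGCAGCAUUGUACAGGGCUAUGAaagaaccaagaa
Mir107: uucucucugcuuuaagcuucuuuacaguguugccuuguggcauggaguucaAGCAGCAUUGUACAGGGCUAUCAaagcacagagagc

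The data were 63 arrays of 1 rat liver each, in 21 groups of 3 male Wistar Hanover rats that were 8 to 10 weeks old when they were assigned to dose groups and were dosed by gastric gavage. Doses in mg/kg/d and days of dosing were, for acetamide (AA), 3000 for 14 days, for cefuroxime (CFX), 250 for 14 days, for dehydroepiandrosterone (DHEA), 600 for 14 days, for ethionine (ETH), 200 for 14 days, for methyl carbamate (Mcarb), 400 for 14 days, for nifedipine (Nif), 3 for 14 days, and for cyproterone acetate (CPA), 100 for 14 days. Phenobarbital (PB) was given for 14 days at a dose that the methods state and the labels leave out. C.I. Direct Black (CIDB) was given at 146, dimethylnitrosamine (DMN) at 4, methapyrilene (MPy) at 60 and thioacetamide (TAA) at 19.2 for 7 days, and diethylstilbestrol (DES) at 10, piperonyl butoxide (PBO) at 1200 and Wy-14643 (Wy) at 60 for 3 days. The vehicle rats formed 2 corn oil sets (CO controls 3 and 4) and 4 methylcellulose sets (MC controls 1, 2, 5 and 6), labelled with 14 days of dosing except CO control 3 with 7 days. Each compound was compared with the set its label names. These were CO control 3 for CIDB and DMN, CO control 4 for CPA, and methylcellulose sets for the other compounds. By these labels DES, PBO and Wy rats dosed for 3 days were set against vehicle rats dosed for 14 days, and MPy and TAA rats dosed for 7 days likewise, although the methods call the controls matched in time, so time and compound cannot be told apart in these 5 compounds. The treated rats on the arrays had been picked by the study because their livers showed some change under the microscope.

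Before the results, the assignment of arrays has to be described, because it decides which compound a value belongs to. Of the 63 columns of the authors' value table, 48 followed the array filed under their own label, with Pearson's r of 0.797 to 0.959 over 71 miRNAs detected on all arrays, and 15 followed the array of another group, with r of 0.842 to 0.964 against -0.05 to 0.675 for their own. The DES and DHEA columns followed each other's arrays, the MC control 1 columns followed the MC control 5 arrays, the MC control 5 columns those of MC control 2, and the MC control 2 columns those of MC control 1. Which of the 2 assignments is right cannot be settled from these files, so arrays are called by the label they were filed under and the main results that rest on them are given under both. Values with no assignment named are as filed. The liver marker miR-122 was detected on all 63 arrays at log2 values of 14.21 to 14.70. The arrays were scanned on 3 days, with 30, 28 and 5 arrays, and the median brightness of a spot lay between 193.5 and 243.5 units for arrays of day 1, between 140.0 and 153.5 for day 2 and between 75 and 78 for day 3. All values below are log2 of quantile normalized brightness without background subtraction unless another scale is named.

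Both members were well above background on 63 of 63 arrays. The log2 value of miR-103 ran from 7.86 to 8.16 over all rats with a median of 8.01, and that of miR-107 from 8.15 to 9.27 with a median of 8.36. Without the 6 rats filed as DES and Wy, the highest value of miR-107 in the other 57 rats was 8.58, in a PBO rat, while the lowest of those 6 was 9.10. The pooled SD between rats of a group was 0.034 for miR-103 and 0.059 for miR-107. The brightness of a spot includes background, and the background-subtracted signal made up a median of 34.6% of the brightness for miR-103 and 51.8% for miR-107. Fold changes on background-subtracted scales are given further on.

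**Figure D1:**
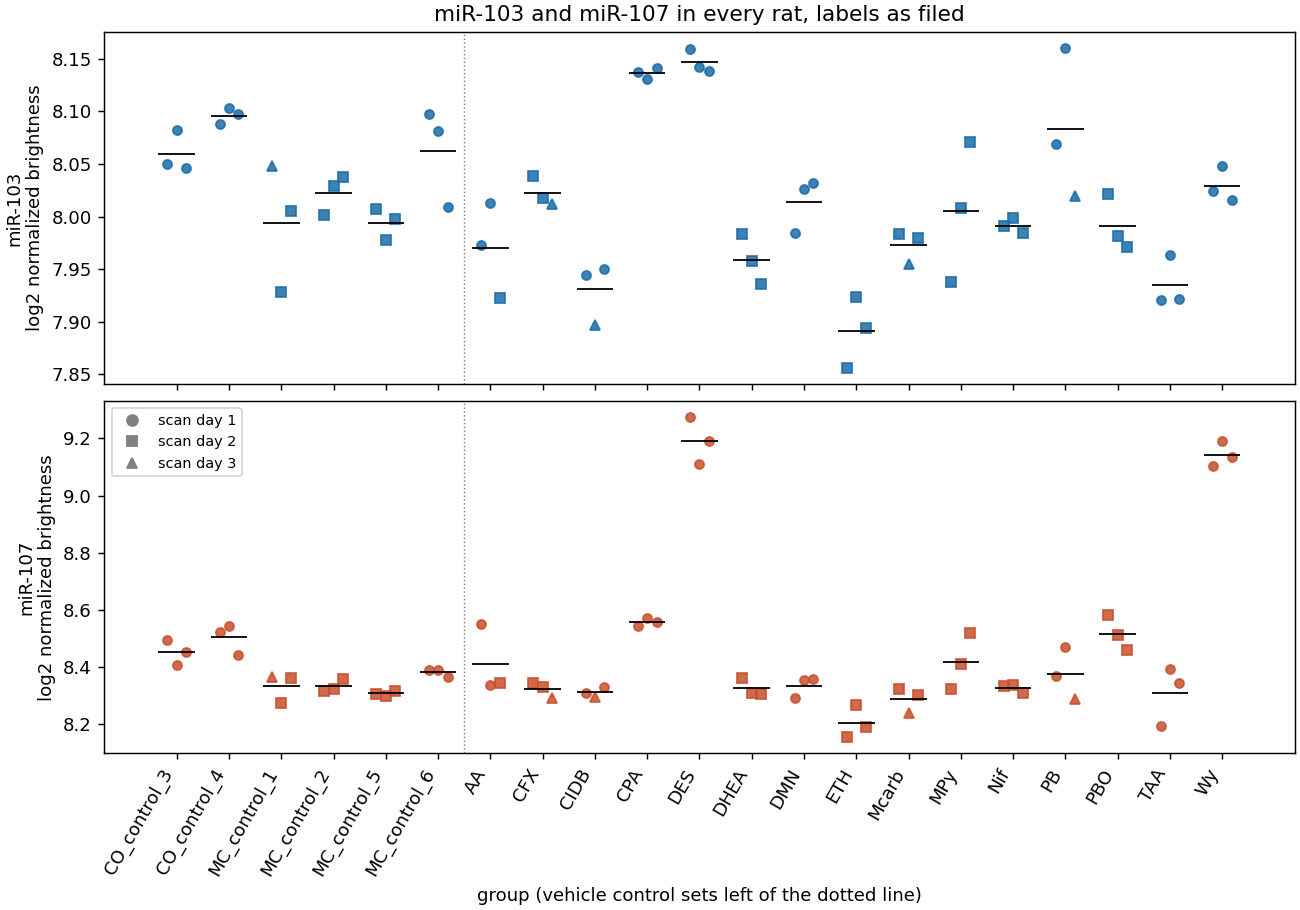
Log2 normalized brightness of miR-103 (upper panel) and miR-107 (lower panel) in each rat by group as filed, with the vehicle control sets left of the dotted line, marker shape for the scan day and a black line for the mean of 3 rats. The DES and Wy rats lie at 9.11 to 9.27 and 9.10 to 9.19 for miR-107, above all other rats, whereas miR-103 stays between 7.86 and 8.16 in all groups.

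In the vehicle rats the baseline of the pair was narrow. miR-103 averaged 7.99 ± 0.06 (SD, n = 3) in MC control 1, 8.02 ± 0.02 in MC control 2, 7.99 ± 0.01 in MC control 5 and 8.06 ± 0.05 in MC control 6. In corn oil it averaged 8.06 ± 0.02 in CO control 3 and 8.10 ± 0.01 in CO control 4. miR-107 averaged 8.33 ± 0.05, 8.33 ± 0.02, 8.31 ± 0.01 and 8.38 ± 0.01 in MC controls 1, 2, 5 and 6, and 8.45 ± 0.04 and 8.50 ± 0.05 in CO controls 3 and 4. The corn oil sets thus had the highest means of miR-107 among the vehicle sets, and every rat of them was above every methylcellulose rat for that miRNA, although vehicle and scan day move together here, since both corn oil sets and only MC control 6 of the methylcellulose sets were scanned wholly on day 1. The 3 MC sets that change place between the assignments averaged 8.31 to 8.33 for miR-107, so the choice of assignment moved its control mean by less than the pooled SD.

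miR-107 was higher in the rats filed as DES. It was at 9.27, 9.11 and 9.19 in these rats and at 8.31, 8.30 and 8.32 in MC control 5. The groups did not overlap. The log2 fold change was 0.89 ± 0.05 (SE), 1.85-fold, and ranked first of 162 miRNAs in that comparison, both from the highest and by size, where 37.0% of the miRNAs tested were called. miR-103 in the same rats was at 8.16, 8.14 and 8.14 against 8.01, 7.98 and 8.00, a log2 fold change of 0.15 ± 0.03 that ranked 18th from the highest and 38th by size. Both members were called in these rats, but their fold changes differed by 0.73 log2 units.

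Under the assignment of the value table, these 3 arrays are DHEA rats and their controls are the arrays filed as MC control 5, now named MC control 1. The values are then the same for DHEA as above for DES, a log2 fold change of 0.89 ± 0.05 for miR-107 and 0.15 ± 0.03 for miR-103 with 37.0% of the miRNAs tested called. The arrays filed as DHEA, at 8.36, 8.31 and 8.31 for miR-107, become the DES rats, and the fold change of DES is -0.01 ± 0.05 for miR-107 and -0.06 ± 0.03 for miR-103, with neither member called where 17.9% of miRNAs were. As filed, DHEA had fold changes of -0.01 ± 0.05 for miR-107 and -0.04 ± 0.03 for miR-103, with neither called where 18.5% were. The rise of miR-107 therefore belonged to 1 of DES and DHEA, and the assignment decided which. DES is a synthetic oestrogen and DHEA an adrenal steroid that is known, at high doses in rodents, as a peroxisome proliferator.

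The authors' value table, normalized by them on its own log2 scale, gave the rise to DHEA. Its 3 DHEA columns held 8.71, 8.43 and 8.62 for miR-107, and its 3 Wy columns 8.51, 8.66 and 8.49. The highest of the other 57 columns was a PBO column at 7.59. The log2 fold changes of miR-107 fitted to that table were 1.63 ± 0.12 in DHEA, 1.59 ± 0.12 in Wy and -0.03 ± 0.12 in DES, and it ranked first from the highest of the 135 miRNAs of the table in DHEA and in Wy (by size 2nd and 1st), where 41.5% and 11.1% of them were called. miR-103 had 0.39 ± 0.10 in DHEA, 0.22 ± 0.10 in Wy and -0.25 ± 0.10 in DES on that scale, and was called in DHEA but not in Wy or in DES, where 16.3% were.

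miR-107 was also higher in Wy rats, whose arrays keep their name under both assignments. Wy-14643 is a PPAR-alpha agonist and a peroxisome proliferator. miR-107 was at 9.10, 9.19 and 9.13 in Wy rats and at 8.37, 8.28 and 8.36 in MC control 1, with no overlap. The log2 fold change was 0.81 ± 0.05, 1.75-fold, which ranked first of 162 both from the highest and by size where 25.9% were called. miR-103 was at 8.02, 8.05 and 8.02 against 8.05, 7.93 and 8.01, so its groups overlapped, and its fold change of 0.04 ± 0.03 was not called. Under the assignment of the value table the control rats change and the fold changes are 0.84 ± 0.05 for miR-107 and 0.04 ± 0.03 for miR-103, where 11.1% of miRNAs were called.

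**Figure D2:**
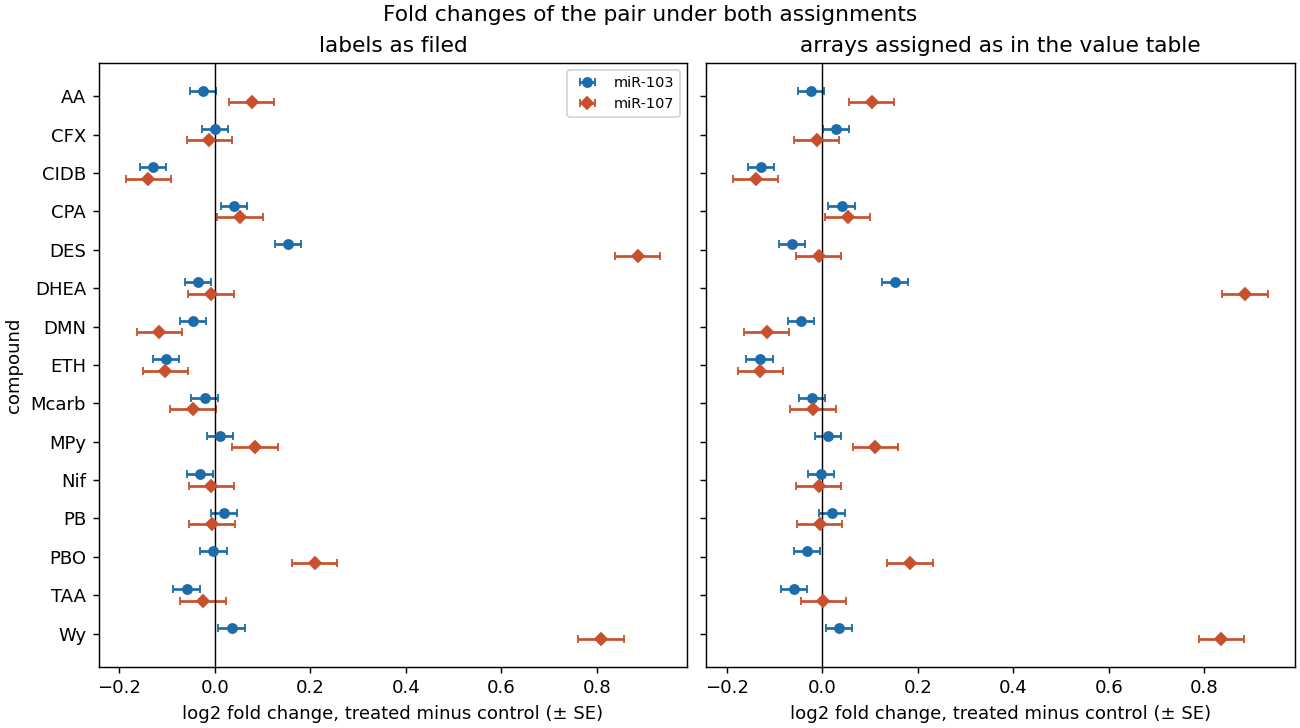
Log2 fold changes (treated minus control, bars ± SE of the limma fit) of miR-103 and miR-107 for the 15 compounds, with the labels as filed on the left and the value table's assignment on the right. miR-107 stands at 0.89 in DES and 0.81 in Wy on the left and at 0.89 in DHEA and 0.84 in Wy on the right, while miR-103 stays between -0.13 and 0.15 in both panels.

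The scan day and the slide move with these contrasts, since the DES-filed and Wy arrays were read on day 1 and their control sets on days 2 and 3. Vehicle rats of the same day give a direct reference. Against MC control 6, methylcellulose rats scanned on day 1 at 8.38 ± 0.01, miR-107 was higher by 0.81 in the DES-filed rats and by 0.76 in the Wy rats, without overlap. Against CO control 3, corn oil rats on the slide of the DES-filed arrays, it was higher by 0.74. Against TAA rats, on the slide of the Wy arrays, miR-107 was higher in Wy by 0.83. With the scan day as a fixed block, the fold change of miR-107 was 0.81 in DES and 0.73 in Wy, and with the slide as a fixed block 0.92 and 0.60. Neither group shares a slide or a scan day with its control set. The block values therefore rest on the few groups whose rats were split between slides or days. For miR-103 the excess in the DES-filed rats was 0.08 against MC control 6 and 0.09 against CO control 3, and 0.07 with the scan day and 0.11 with the slide as a block, neither of which was called. In Wy rats miR-103 differed from MC control 6 by -0.03, with overlap, and was higher than in TAA rats by 0.09, without overlap.

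PBO, an inhibitor of cytochrome P450 enzymes, gave the next highest fold change of miR-107 on this scale. It was at 8.58, 8.51 and 8.46 in PBO rats against 8.31, 8.30 and 8.32 in MC control 5, a log2 fold change of 0.21 ± 0.05, 1.16-fold, which ranked 7th from the highest and 13th by size of 162 where 8.64% were called. With median centring it was 0.26 where the median of all miRNAs in PBO was 0.30, so relative to that median the direction turned (-0.04). miR-103 in the same rats, at 8.02, 7.98 and 7.97, overlapped its controls and changed by 0.00 ± 0.03. On slide 6, which held all 3 PBO rats and 2 of the MC control 5 rats, the excess of miR-107 was 0.21 and that of miR-103 0.00. The hepatocyte miRNA miR-192 was lower in the same rats at -0.24 ± 0.07 (limma adjusted p = 0.0172), and its part in the values of the pair was not tested. The PBO rats overlapped the corn oil rats for miR-107, which ran from 8.41 to 8.54. Under the assignment of the value table the fold change of miR-107 in PBO was 0.18 ± 0.05, called where 15.4% of miRNAs were. Of the cell type markers, 2 of 3 hepatocyte miRNAs, 1 of 4 leukocyte miRNAs and the stellate and smooth muscle miRNA miR-143 were then called lower. Their part in the values of the pair was not tested either.

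In CIDB rats both members were lower by similar amounts on the scale of quantile normalized brightness. CIDB is an azo dye and the rats had received it for 7 days. miR-103 was at 7.94, 7.90 and 7.95 against 8.05, 8.08 and 8.05 in CO control 3, a log2 fold change of -0.13 ± 0.03. miR-107 was at 8.31, 8.29 and 8.33 against 8.49, 8.41 and 8.45, a log2 fold change of -0.14 ± 0.05. Neither overlapped its controls, and both were called where 20.4% of miRNAs were. The call of miR-107 was lost without CIDB replicate 1 or 2 (-0.14 and -0.13) and without CO control 3 replicate 4 or 6 (-0.12 and -0.14). It was also not called on the same fold change without a filter on detection, nor with median centring (-0.11), with either percentile scaling (-0.01 and -0.17) or with the slide (-0.12) or the scan day (-0.11) as a fixed block. With median centring, where the median of all miRNAs in CIDB was -0.42, miR-103 and miR-107 lay above that median by 0.14 and 0.31, so their direction relative to it turned. CIDB replicate 2 was scanned on day 3 and the others on day 1. Of the hepatocyte miRNAs in the same rats, miR-122 was lower at -0.33 ± 0.03 (limma adjusted p = 3.04e-11) and miR-192 at -0.50 ± 0.07 (limma adjusted p = 2.28e-07), while miR-194 at -0.14 ± 0.07 was not called. The leukocyte miRNA miR-223 was lower at -0.15 ± 0.05 (limma adjusted p = 0.0259). The part of these in the values of the pair was not tested.

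Rats given ETH, the ethyl analogue of methionine, had the lowest group means of both members, 7.89 ± 0.03 for miR-103 and 8.20 ± 0.06 for miR-107. miR-103 was at 7.86, 7.92 and 7.89 against 8.01, 7.98 and 8.00 in MC control 5, a log2 fold change of -0.10 ± 0.03, which was called where 16.0% of miRNAs were, and not called without ETH replicate 1 (-0.09). miR-107 was at 8.15, 8.27 and 8.19 against 8.31, 8.30 and 8.32, a log2 fold change of -0.10 ± 0.05, which did not overlap either but was not called. Under the assignment of the value table the fold changes were -0.13 for both, and miR-103 alone was called where 15.4% were. With the authors' values miR-107 in ETH was at -0.38 ± 0.12 and called, which made 5 compounds for miR-107. The share of all miRNAs called in ETH with those values is not given here. Of the hepatocyte miRNAs in ETH rats, miR-192 was lower at -0.66 ± 0.07 (limma adjusted p = 1.98e-10) and miR-194 at -0.55 ± 0.07 (limma adjusted p = 4.88e-09). miR-142-3p at 0.32 ± 0.12 (limma adjusted p = 0.0491), miR-142-5p at 0.09 ± 0.03 (limma adjusted p = 0.012) and miR-143 at 0.19 ± 0.06 (limma adjusted p = 0.012) were higher, and of these 3 only miR-143 was called under the other assignment. The part of these in the values of the pair was not tested.

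Over all 15 compounds, miR-103 was called in 3 (higher in DES, lower in CIDB and ETH) and miR-107 in 4 (higher in DES, Wy and PBO, lower in CIDB), where 14.3% of all tests of a miRNA in a compound were called, 7.57% higher and 6.71% lower. In the compounds not described so far the share of miRNAs called was 13.6% in AA, 5.56% in CPA, 23.5% in DMN, 1.85% in Mcarb, 18.5% in MPy, 3.09% in PB and 21.6% in TAA, with neither member among them. In the compounds without a call the log2 fold change of miR-103 ran from -0.06 to 0.04 and that of miR-107 from -0.12 to 0.08. CFX and nifedipine, the compounds the study lists as non-carcinogens, gave fold changes of 0.00 and -0.03 for miR-103 and of -0.01 and -0.01 for miR-107, where no miRNA (0.0%) was called by limma in either. Under the assignment of the value table the counts were again 3 and 4 with DHEA in the place of DES, where 11.5% of all tests were called, 6.13% higher and 5.35% lower. The shares were then 2.47% in AA, 0.617% in Mcarb, 12.3% in MPy and 7.41% in TAA, and kept their values in CIDB, CPA, DMN and PB, whose controls do not change. The split of calls by direction moved with the scaling. With the 75th percentile over detected probes miR-103 was called in 2 compounds and miR-107 in 6, all higher. With median centring miR-103 was called higher in 1 and lower in 1 and miR-107 higher in 3. The median fold change of all miRNAs in a compound itself ran from -0.05 to 0.30 under the first scaling and from -0.42 to 0.31 with median centring. The share of all miRNAs called is not given for these scalings, so these counts are not read as a result about the pair. Compounds that share a control set share its rats, so their fold changes are not independent of each other.

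The order of the group means differed between the members. For miR-107 the DES-filed and Wy groups were highest and overlapped each other, and a gap to the next group, CPA at 8.56 ± 0.01, was the only place in the order of the 21 groups where neighbours did not overlap. For miR-103 the highest groups were DES at 8.15 ± 0.01 and CPA at 8.14 ± 0.01, Wy stood seventh at 8.03 ± 0.02, and 18 of 20 neighbouring pairs of groups overlapped. CPA, a steroid antiandrogen, was compared with corn oil rats that were themselves high, and its fold changes were 0.04 ± 0.03 for miR-103 and 0.05 ± 0.05 for miR-107.

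The log2 value of miR-107 minus that of miR-103 in the same rat removes what shifts both log2 values by the same amount. Background is part of the brightness, and the background-subtracted signal was a median of 34.6% of it for miR-103 and 51.8% for miR-107. An equal fold change of both RNAs need therefore not cancel. The log ratio was 1.05 ± 0.07 (SD, n = 3) in the DES-filed rats against 0.31 ± 0.01 in MC control 5. In Wy rats it was 1.11 ± 0.03 against 0.34 ± 0.02 in MC control 1. The differences of 0.73 and 0.77 compare with a pooled SD of this log ratio of 0.046. PBO rats had 0.53 ± 0.04 against 0.31 ± 0.01, a difference of 0.21. MPy (0.07) and Nif (0.02) also did not overlap their controls, so the rats did not overlap in 5 of 15 compounds. For comparison, among all pairs of the 71 miRNAs detected on all arrays the log ratio did not overlap in 62.2% of pairs in DES, 36.9% in Wy, 43.1% in PBO, 45.9% in MPy, 26.3% in Nif and 35.3% over all compounds, so lack of overlap alone was common. Under other processing with the filed labels the difference ran from 0.58 to 1.45 in DES, from 0.63 to 1.27 in Wy and from 0.06 to 0.30 in PBO, with the lowest value of each under median centring.

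Under the assignment of the value table the log ratio did not overlap in 7 of 15 compounds, where 34.5% of pairs of miRNAs did not. The difference was 0.73 in DHEA, 0.80 in Wy and 0.21 in PBO, and 0.06 in DES, 0.10 in MPy, 0.13 in AA and -0.04 in CFX. Of all pairs of miRNAs, 62.2% did not overlap in DHEA, 40.0% in Wy, 47.3% in PBO, 44.3% in DES, 46.6% in MPy, 29.0% in AA and 6.24% in CFX. In the 11 compounds other than DES, DHEA, Wy and PBO it ran from -0.07 to 0.10 as filed and from -0.07 to 0.13 as assigned. In CIDB and ETH, where both members were lower, the log ratio differed by -0.01 and 0.00 from the controls, as filed. Under other processing with the filed labels that difference ran from -0.02 to 0.18 in CIDB and from -0.01 to 0.10 in ETH. AA had the widest spread of miR-107 between rats of a group, with an SD of 0.12 and values of 8.34, 8.34 and 8.55.

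**Figure D3:**
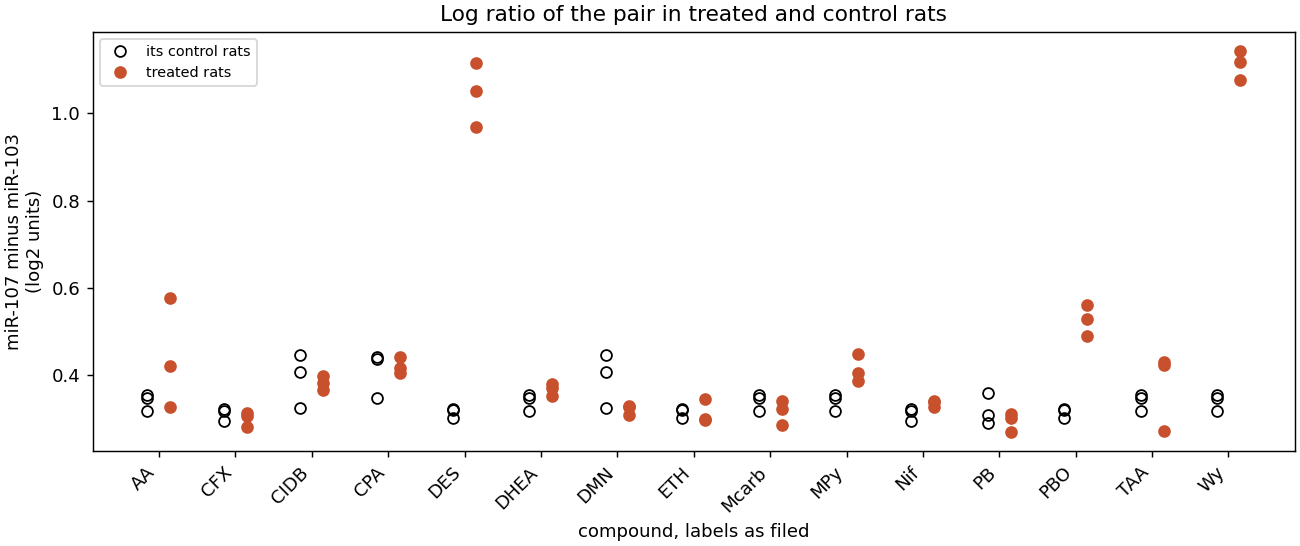
Log2 value of miR-107 minus that of miR-103 in each treated rat (filled) and each rat of its control set (open) for the 15 compounds, labels as filed. The DES and Wy rats lie at 0.97 to 1.12 and 1.08 to 1.14, the PBO rats at 0.49 to 0.56, and the control rats at 0.29 to 0.44.

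Each member was read by 2 probes of 10 spots. The probes of miR-107 gave 0.92 and 0.85 in the DES-filed rats and 0.80 and 0.82 in Wy. In PBO they gave 0.27 and 0.15, of the same sign but with a gap of 0.12 against a median gap of 0.041 over the 15 compounds. Those of miR-103 did not agree in the DES-filed rats, where probe 1 gave 0.33 and probe 2 gave -0.02, the widest gap of the member over the 15 compounds. The rise of miR-103 in these rats thus rested on probe 1. In Wy rats the probes of miR-103 gave 0.04 and 0.03, in CIDB rats -0.21 and -0.05, and in ETH rats -0.14 and -0.06. Probe 2 of miR-103 was the dimmest of the 4, with a median background-subtracted signal of 42.4 units, against 139.6 for probe 1 of the same miRNA. The probes had the same sign in 10 of 15 compounds for each member. The probe sequences were not used here, so whether a probe of 1 member also reads the other was not tested.

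**Figure D4:**
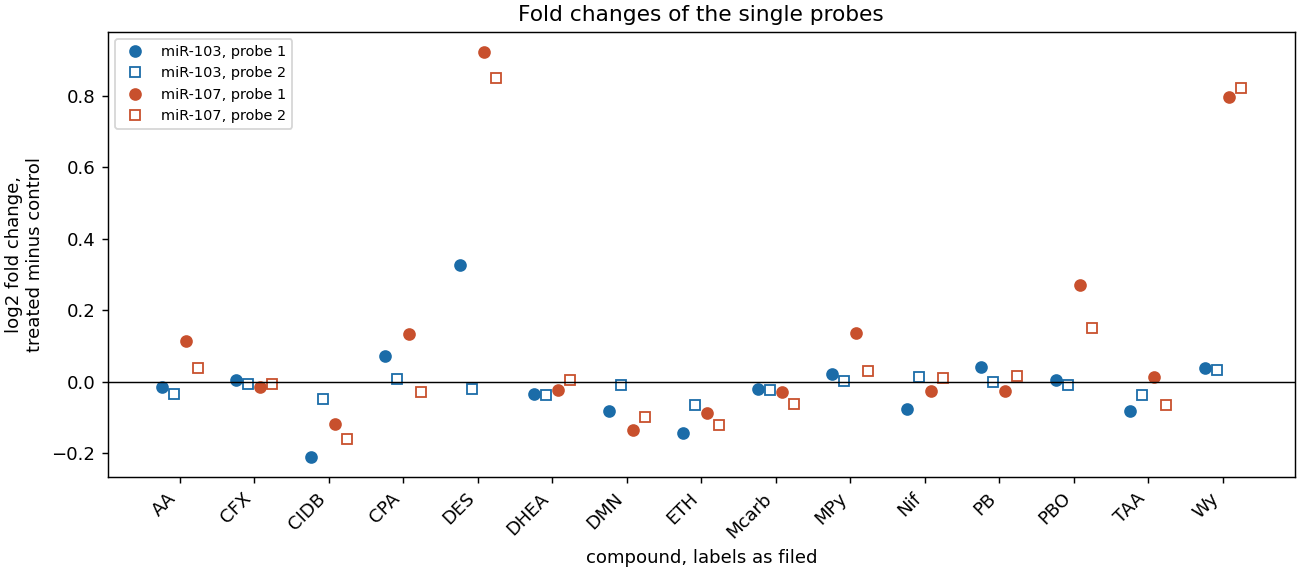
Log2 fold change (treated minus control) of each of the 4 probes for the 15 compounds, labels as filed, with probe 1 filled and probe 2 open. Both probes of miR-107 are high in DES (0.92 and 0.85) and Wy (0.80 and 0.82), and the probes of miR-103 part in DES (0.33 and -0.02).

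The size of the rise depended on the scale, and its place did not among the scales that keep the filed labels. After scaling the background-subtracted signal of each array to its 75th percentile over detected probes, the log2 fold change of miR-107 was 1.52 in DES and 1.60 in Wy, and over all probes 1.51 and 1.19. With normexp background correction it was 1.16 and 1.07, and with median centring 0.85 and 0.76. miR-103 on the same scales was 0.07, 0.06, 0.19 and 0.28 in DES, and 0.32, -0.08, 0.06 and 0.14 in Wy. The median fold change of all miRNAs in a compound ran from -0.05 to 0.30 under the first of these scalings, from -0.28 to 0.27 under the second and from -0.42 to 0.31 with median centring. Relative to that median, miR-103 in DES was 0.10, 0.26 and -0.04, so its direction was not the same on all scales. In Wy miR-103 was 0.25 relative to the median under the first scaling. Its fold change of 0.32 there was called, and the share of all miRNAs called is not given for that scaling.

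**Figure D5:**
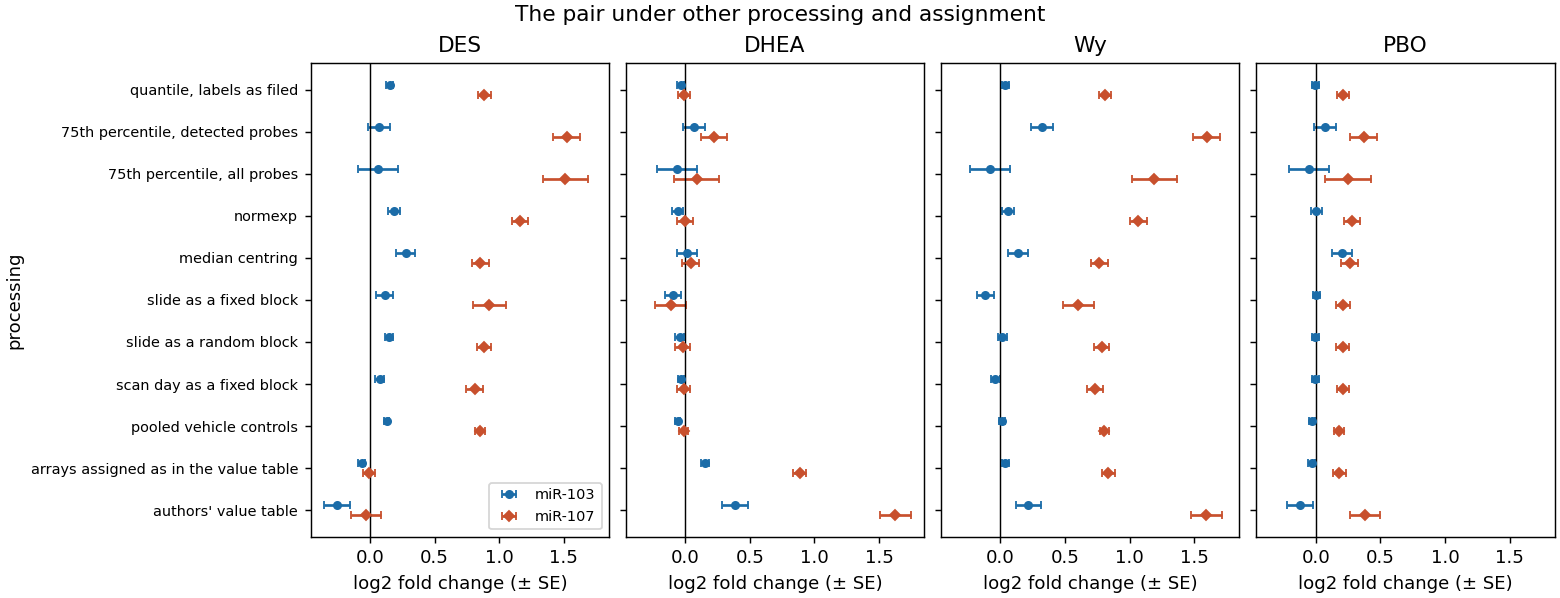
Log2 fold changes (± SE) of miR-103 and miR-107 in DES, DHEA, Wy and PBO under 11 ways of processing and assigning the arrays. miR-107 stays at 0.60 or above in Wy in every row, and is at 0.81 or above in DES in the rows with the filed labels and at -0.01 and -0.03 in the last 2 rows, where DHEA is at 0.89 and 1.63 instead.

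The members moved together where neither was far from its baseline. Over the 63 arrays Pearson's r of their log2 values was 0.56, over the 57 arrays without DES-filed and Wy rats 0.71, and over deviations from the group means 0.62. Within scan days, without those 6 rats, it was 0.70 over 24 arrays of day 1 and 0.64 over 28 of day 2. Rats of a group share treatment, and arrays of a day share depth and background. Among the 70 other miRNAs detected on all arrays, those with the pattern most like miR-103 over 63 arrays were miR-361 (r = 0.69), miR-29a (0.64), miR-98 (0.60), miR-192 (0.59) and let-7i (0.56), with miR-107 sixth. Those most like miR-107 were let-7b (0.64), miR-103 (0.56), miR-98 (0.53), miR-361 (0.52) and let-7d (0.49). Without the DES-filed and Wy rats, let-7b fell to r = 0.32 with miR-107 while miR-103 was at 0.71.

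The miRNAs with a related seed were followed for comparison. The miR-15 and miR-16 family, known for restraint of the cell cycle, carries AGCAGC at bases 2 to 7, where the members carry it at bases 1 to 6, so the seeds overlap but are shifted by 1 base. The relatives on the array are printed with these bases in capitals.
miR-15b-5p: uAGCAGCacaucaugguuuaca
miR-16-5p: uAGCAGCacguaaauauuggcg
miR-195-5p: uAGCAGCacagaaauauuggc
miR-322-5p: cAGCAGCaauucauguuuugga
miR-497-5p: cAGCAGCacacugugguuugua
miR-503-5p: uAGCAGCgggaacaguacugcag
miR-503 was detected on 0 of 63 arrays and the other 5 on all 63.

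In the DES-filed rats none of the 5 relatives was called by limma, where 37.0% of all miRNAs were (median log2 fold change 0.07 against 0.00 over all miRNAs tested). In Wy rats 1 of 5 was called where 25.9% of all were, miR-15b at 0.22 ± 0.07 (limma adjusted p = 0.0134), and under the assignment of the value table it was miR-497 at -0.28 ± 0.09 (limma adjusted p = 0.0381) instead. In PBO rats, where 8.64% of all were called, 2 of 5 were. miR-195 at -0.34 ± 0.11 (limma adjusted p = 0.0274) and miR-497 at -0.33 ± 0.09 (limma adjusted p = 0.0118) were lower, opposite in sign to miR-107, but neither was called under the other assignment. The relatives were called most often in other compounds. miR-15b was higher by 0.52 ± 0.07 in AA, 0.49 ± 0.07 in DMN, 0.47 ± 0.07 in Mcarb and 0.43 ± 0.07 in MPy (limma adjusted p of 1.95e-07, 2e-07, 2.86e-06 and 8.02e-06). Neither miR-103 nor miR-107 was called in these compounds. miR-16 was also called higher in AA (0.41 ± 0.10), DMN (0.29 ± 0.10) and MPy (0.32 ± 0.10). The relatives were split, since miR-195 was called lower in DMN (-0.29 ± 0.11) and MPy (-0.36 ± 0.11) and miR-497 in DMN (-0.25 ± 0.09). The median of the 5 relatives was -0.01 in DMN and -0.03 in MPy. Under the other assignment miR-16 was called only in DMN, and miR-497 also in MPy (-0.35 ± 0.09). As filed, the AA, DMN and MPy rats share no slide with their controls and the Mcarb rats share only slide 9. Slide and compound thus move together here and cannot be told apart. Fewer relatives were called with the slide as a fixed block, as given further on. Most groups lie on 1 slide, so such a block can lower a count of calls by itself, and no cause is read from the drop. Under the other assignment miR-15b kept its value in DMN and stood at 0.35 in AA, 0.29 in Mcarb and 0.25 in MPy (limma adjusted p of 0.00127, 0.0172 and 0.0101). In all, 16 of the 75 tests of a relative in a compound were called, 9 higher and 7 lower, against 14.3% of all tests, and under the other assignment 13 were, 6 higher and 7 lower, against 11.5%. With the 75th percentile over detected probes 12 were higher and 2 lower, over all probes 5 and 8, and with median centring 5 and 1. The share of all miRNAs called is not given for these scalings.

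Markers of cell types were read beside the pair, since in bulk liver fewer cells of a type and less RNA per cell cannot be told apart. In the DES-filed rats, of 4 leukocyte miRNAs tested 2 were lower, miR-142-3p at -0.52 ± 0.12 (limma adjusted p = 0.000696) and miR-142-5p at -0.08 ± 0.03 (limma adjusted p = 0.0227), where 37.0% of all miRNAs were called, and none was called in Wy rats. The hepatocyte miRNA miR-192 was higher at 0.26 ± 0.07 in the DES-filed rats (limma adjusted p = 0.00357), whereas miR-194, another hepatocyte miRNA, was at -0.14 ± 0.07, not called. In Wy rats miR-194 was at 0.16 ± 0.07, not called, and under the other assignment it was higher at 0.19 ± 0.07 (limma adjusted p = 0.0485). miR-122 was at -0.05 ± 0.03 in DES and 0.00 ± 0.03 in Wy, not called. It was the brightest miRNA on 63 of 63 arrays, where quantile normalization can hold a value back. It still ranged from 14.21 to 14.70 over all rats and was called lower in CIDB rats on the same scale. How far its value was held back was not tested, so no hepatocyte content is read from it. The stellate and smooth muscle miRNA miR-143 was lower in Wy at -0.22 ± 0.06 (limma adjusted p = 0.00309) and not called there under the other assignment. The erythroid miRNAs miR-144 and miR-451 and the endothelial miR-126 were not called in either. miR-145 was detected on no array, and the part of these cell types in the values of the pair was not tested.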

How the data were processed

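The deposited scanner files hold intensities that the authors read from 1 array per rat with Agilent Feature Extraction (version 10.7.3.1 per the file headers), with no normalization. The deposited value table holds log2 values of 135 miRNAs that the authors normalized with a variant of RMA for such arrays, without its background correction according to the methods. Its fold changes of miR-107 in DHEA and Wy are larger than those computed here from brightness, and its exact scale stays unknown.

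Control spots were dropped from the mean brightness, as were the 2.87% of spots that an outlier mark excludes. Values were quantile normalized between arrays, averaged over the spots of a probe, set to log2 and summarized over probes by median polish. Only the 162 miRNAs detected on at least 1 array were tested. A limma model (version 3.58.1, R version 4.3.3) covered 63 arrays in 21 groups, each compound minus its control set. P-values were adjusted by Benjamini-Hochberg over 162 miRNAs, and a miRNA was called at an adjusted p under 0.05. The fit was tested on simulated data. Precision is limited by the number of arrays, 3 per group, each from its own rat.

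To assign arrays, each column of the value table was correlated with every array over 71 miRNAs, each centred on its mean. Alternatives covered background correction, scaling, filters, single probes, slide and scan day as blocks, other control rats, the value table and its assignment, and leaving out each rat. The members and the lists were chosen with earlier results of these data known. Named miRNAs were the pair, the seed relatives, the cell type markers and, for each member, the 5 miRNAs with the highest r. The relatives had been listed as sharing bases 2 to 7 of the pair, but the shared bases are shifted by 1. PB and CPA share replicate numbers with their control sets. Same-numbered rats deviated together with r of -0.26 to 0.05, so the numbers were not taken to pair rats.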

Additional observations from a re-analysis of the deposited data

How the results depend on the processing

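Of 1011 recomputed fold changes and log ratio differences, 787 moved by less than the SD between rats and 209 moved further. The remaining 15 changed the sign of a value that was called or did not overlap as reported. Part of the 787 could not move. Other filters on detection, fits of only the groups compared and the replicate block keep the group means. Reassignment alone leaves CIDB, CPA, DMN and PB as they were. The 787 is therefore no measure of stability. These 15 concerned DES and Nif, and apart from the assignment itself and the probe used, the cause was not tested. In DES under the value table's assignment, miR-103 was at -0.064 and miR-107 at -0.0073. With the slide as a fixed block added they were at -0.055 and -0.036, and with pooled vehicle controls added at -0.059 and -0.013, these 2 combinations having been chosen after seeing the data. The authors' values gave -0.25 and -0.033. Probe 2 alone gave -0.020 for miR-103 in DES. The log ratio difference in Nif, 0.02 as reported, was -0.021 with the authors' values, -0.0070 under both percentile scalings, -0.031 with median centring, -0.0051 under the value table's assignment and -0.016 with the slide block added to that.

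miR-103 was called in 3 compounds as reported, but in 0 with the percentile over all probes and in 1 with the slide as a fixed block. It was called in 6 with pooled vehicle controls under either assignment. These counts and those that follow stand without the share of all miRNAs or pairs under the same setting. They are therefore not read as results about the members or the relatives. With the percentile over detected probes the 2 calls were MPy and Wy. miR-107 was called in 4 compounds, but in 2 with the percentile over all probes and in 2 with the slide block under the value table's assignment. The log ratio did not overlap in 5 compounds, but in 3 with median centring. Relatives were called 16 times, but 6 times with median centring, 3 with the slide as a fixed and 9 as a random block, 2 with the slide block under the value table's assignment and 5 with only the groups compared. Leaving out each rat gave 2 to 4 compounds for miR-103, 3 to 5 for miR-107, 5 to 7 for the log ratio and 13 to 18 calls of relatives. Leaving out a rat can only narrow the range of a group. The count for the log ratio therefore could not fall below 5, and its lower end says nothing of stability. Without MC control 1 replicate 5, miR-103 was called in TAA (-0.092 against -0.059).

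With the replicate block, miR-103 was at 0.020 in PB and 0.040 in CPA and miR-107 at -0.0054 and 0.053, none called. Calls over all miRNAs were 5 in PB without the block and 0 with it, or with only its own groups, and 9 in CPA without the block and 0 with it.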
